A study of Mus musculus with 4 samples.

Results

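The genes described here are 46 enzymes of amino acid breakdown and the urea cycle, taken from a list of symbols and all found among the 21887 protein-coding genes on the assembled nuclear chromosomes of the GRCm38.p6 RefSeq table. Propionylation of lysine 23 of histone H3 (H3K23pr) was mapped by chromatin immunoprecipitation and sequencing (ChIP-seq) in liver of male C57BL/6 mice of unstated age. The KO group carried a hepatocyte-specific knockout of RPN11, the deubiquitylating subunit of the proteasome lid, and the WT group was RPN11 flox/flox. The labels do not name the Cre line, and a whole-liver library also holds DNA of cells that keep the gene. Each genotype had 1 immunoprecipitate (IP) and 1 input, so every KO and WT value below compares 2 libraries, has no replicate error and supports no test of genotype. A member's window was the gene and 5 kb on each side, and any peak that touched it, by 1 bp or more, was counted there.

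The liver is the main site where amino acid nitrogen is turned into urea. Aminotransferases collect the nitrogen on glutamate and aspartate, glutaminase and glutamate dehydrogenase release ammonia, and the urea cycle, which is most active in periportal hepatocytes, fixes it. The carbon skeletons of tyrosine, tryptophan, histidine, methionine, glycine and lysine are taken apart by separate enzyme chains, several of which are induced by glucocorticoids and glucagon. Histone propionylation is made from propionyl-CoA, to which the breakdown of methionine, among other amino acids, contributes.

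The KO list held 41907 peaks from 15468265 IP fragments and the WT list 54397 from 13615838, after the caller's duplicate filter. Most peaks were low, with 70.1% of KO peaks and 65.7% of WT peaks resting on 4 or 5 fragments at the summit. Mean fragment size was 71 bp in the KO IP and 97 bp in the WT IP, and the commonest local background was 0.568 fragments in KO and 0.692 in WT. These library properties move with genotype and cannot be told apart from it. The peak lists hold 1 histone mark and do not check the identity of the tissue.

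The member windows held 54 KO peaks and 37 WT peaks. Over protein-coding genes whose windows were within 10% of each member's length, the mean peak numbers summed to 28.3 in KO and 41.3 in WT. The KO number was thus 1.91 times the number expected from length (95% Poisson interval 1.44 to 2.49) and the WT number 0.897 times (0.631 to 1.24). These intervals treat peaks as independent counts and cover counting error only. Much of the KO number lay in 2 genes with long windows, Cps1 and Kynu. Without them KO had 32 peaks against 23.4 expected, a ratio of 1.37 (0.936 to 1.93), and WT had 25 against 34.8, a ratio of 0.718 (0.465 to 1.06).

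Of all peaks in member windows, 59.3% were from the KO list (exact 95% binomial interval 48.5 to 69.5), against 42.7% in the windows of all protein-coding genes, where overlapping windows count a peak more than once. With peaks of 6 or more fragments the KO share was 43.8% (26.4 to 62.3) for the members and 39.4% for all genes, so the interval for these higher peaks included the value for all genes. The share of members with at least 1 peak was 41.3% in KO (19 of 46, interval 27.0 to 56.8), where 33.3% of all genes had one. It was 32.6% in WT (15 of 46, interval 19.5 to 48.0), where 47.7% of all genes had one. The number of members marked in both lists was 11 of 46 (23.9%), close to the 24.3% of all genes. With the strongest 20000 peaks of each list, 12 members (26.1%) had a KO peak, against 21.4% of all genes, 13 (28.3%) had a WT peak, against 28.6%, and 7 (15.2%) had both, against 12.3%. At a caller q of 0.05 or smaller, 8 members (17.4%) had a KO peak, against 16% of all genes, 5 (10.9%) had a WT peak, against 11.4%, and 3 (6.52%) had both, against 4.81%. These shares lay near those of all genes. The origin of the q values is uncertain, since the headers of the lists state that q would not be calculated. The median member had 0 peaks in KO and 0 in WT, as did the median gene of all those counted.

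**Figure D1:**
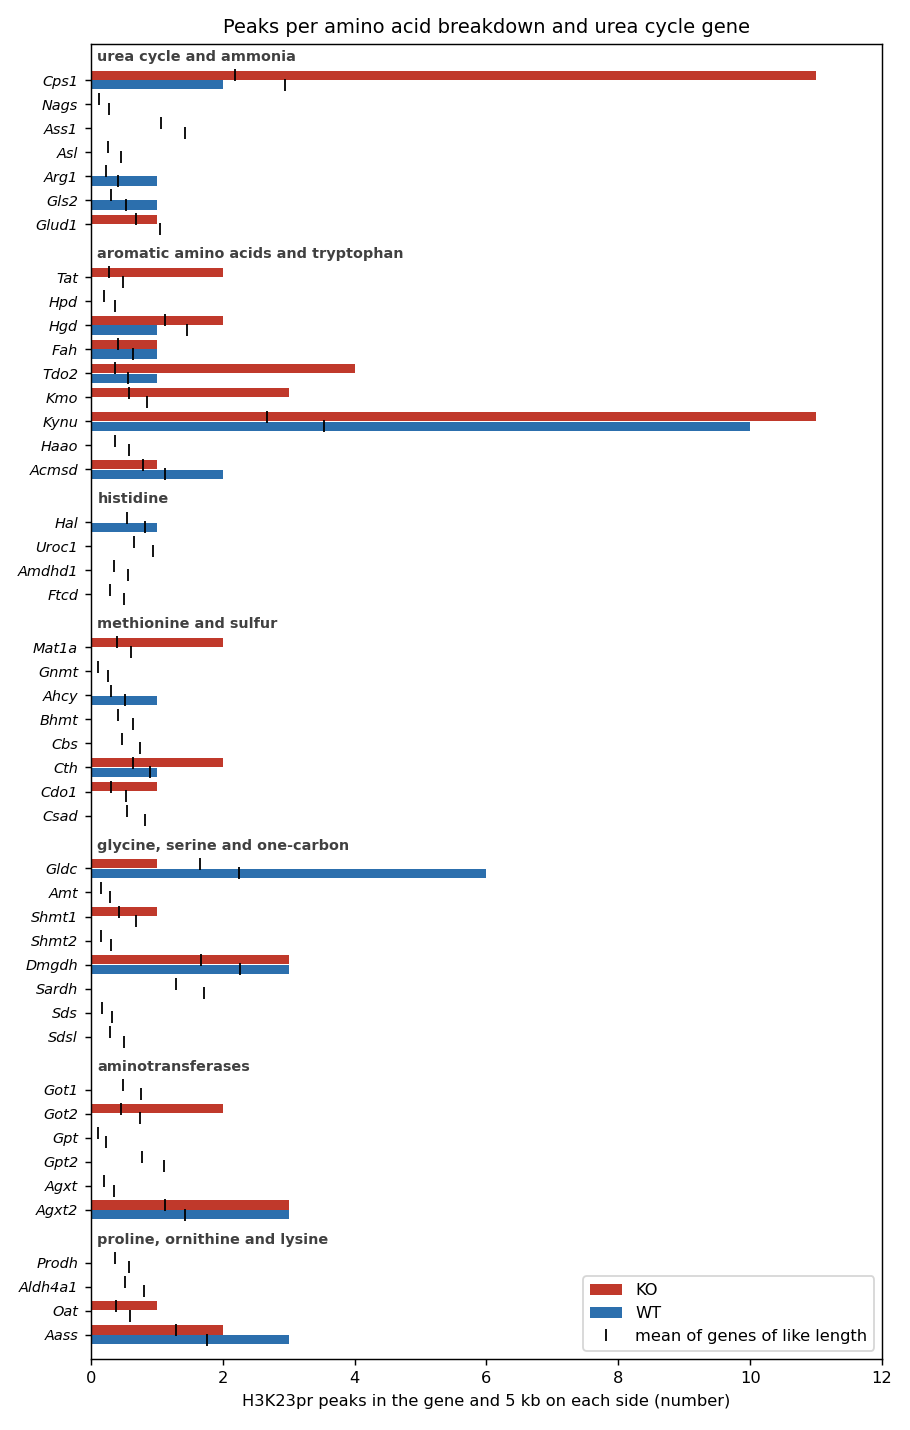
Horizontal bars give the number of H3K23pr peaks in each member's window, with KO above WT and genes grouped by pathway. The black ticks give the mean of genes of like length. Cps1 reaches 11 peaks in KO and 2 in WT, Kynu 11 and 10, and Gldc 1 and 6, while 23 members have no bar.

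A member was counted as KO-rich when KO had at least 2 peaks more than WT and at least 2 times as many. That held for 6 members (13.0%) and for 4.92% of all genes. The 6 were Cps1, Tat, Tdo2, Kmo, Mat1a and Got2. With 5 or more fragments the rule failed for Mat1a (1 KO peak, 0 WT) and held for the others. With 6 or more fragments, of these 6 it held for Cps1 alone (3 and 0). Tdo2 then had 2 and 1, Got2 1 and 0, and Tat, Kmo and Mat1a had no peak. The 6 had the same numbers at a caller q of 0.05 or smaller, where Kynu (3 and 1) also met the rule. The converse, WT-rich, held for Gldc (2.17% of members), against 12.6% of all genes. With 5 or more fragments Gldc (1 KO peak, 4 WT) still met it, and Acmsd (0 and 2), Dmgdh (1 and 3) and Aass (0 and 3) did too. With 6 or more Gldc had 0 and 3. The shares over all genes were not counted at these thresholds.

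Cps1 had as many KO peaks as any member and few WT peaks. It encodes carbamoyl phosphate synthetase, the mitochondrial enzyme that commits ammonia to the urea cycle, and lies on chromosome 1 from 67122426 to 67231267 (mm10). Its window held 11 peaks in KO and 2 in WT. The mean of 608 genes of like length was 2.18 in KO and 2.94 in WT. In KO 0.822% of these genes had as many peaks, and in WT 74.2% did. The KO summits had 4 to 6 fragments, 3 of them with 6, and were spread over 101 kb with a median gap of 9.62 kb. The WT summits had 5 and 4 fragments. No KO peak overlapped a WT peak.

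The surroundings of Cps1 were also denser in peaks than all gene windows pooled, which held 16.9 peaks per Mb in KO and 22.7 in WT. The 500 kb on each side together held 38 peaks in KO and 35 in WT. That was 3.80 peaks per 100 kb in KO and 3.50 in WT, against 9.26 per 100 kb in KO and 1.68 in WT inside the window. With summits of at least 5 fragments, Cps1 kept 5 peaks in KO and 1 in WT, and 5.26% of like-length genes had as many in KO. At a caller q of 0.05 or smaller it had 3 peaks in KO and 0 in WT. With at least 5 fragments the 7 urea cycle and ammonia genes had 5 KO peaks against 3.06 expected (1.63, 0.530 to 3.81), where with all peaks they had 12 against 4.86 (2.47, 1.27 to 4.31).

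The other urea cycle and ammonia genes did not share this pattern. Together the 6 genes other than Cps1 had 1 KO peak where 2.68 were expected from length, and 2 WT peaks where 4.15 were expected. Nags, whose product makes the activator of Cps1, and Ass1 and Asl, which build and cleave argininosuccinate, had no peak in either list. Genes as long as Ass1, whose window is 60.4 kb, averaged 1.07 KO and 1.43 WT peaks. The surroundings of Ass1 were also sparse, and from the 500 kb on each side 0.121 KO and 0.966 WT peaks were expected. Arg1, which releases urea from arginine, had 0 peaks in KO and 1 in WT, with 6 fragments, outside the gene. Gls2, the liver glutaminase gene, had 0 in KO and 1 in WT, with 7 fragments, also outside the gene and over a raised background of 1.04 fragments. Glud1, which encodes glutamate dehydrogenase, had 1 in KO, with 4 fragments, and 0 in WT.

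Genes of tyrosine and tryptophan breakdown held the most peaks of any group. The 9 genes had 24 KO peaks against 6.80 expected from length (ratio 3.53, interval 2.26 to 5.25) and 15 WT peaks against 9.62 (1.56, 0.873 to 2.57). Without Kynu the remaining 8 had 13 KO peaks against 4.13 (3.15, 1.68 to 5.38) and 5 WT peaks against 6.09 (0.821, 0.267 to 1.92). These ratios depend on low peaks. With 5 or more fragments the 9 genes had 13 KO peaks against 4.36 (2.98, 1.59 to 5.10). They then had as many WT peaks, 13 against 6.60 (1.97, 1.05 to 3.37). With 6 or more fragments the 9 genes had 5 KO peaks against 2.44 (2.05, 0.666 to 4.79) and 7 WT peaks against 3.92 (1.79, 0.718 to 3.68), and KO no longer stood apart from WT. Without Kynu the 8 then had 2 KO peaks, both in Tdo2, against 1.56 (1.28, 0.155 to 4.64) and 3 WT peaks against 2.57 (1.17, 0.240 to 3.41). With all peaks, in KO 7 of the 9 had a peak where 3.23 were expected, and in WT 5 where 4.78 were expected. The expectations above use length only. The 500 kb on each side of Tdo2, Kmo and Acmsd held 3.1 KO peaks per 100 kb for each gene. The value was 2.5 for Hgd, 1.8 for Fah, 1.3 for Tat, 0.8 for Haao and 0.6 for Hpd. From these flanks 0.847 KO peaks were expected at Tdo2 and 1.2 at Kmo, where length gave 0.369 and 0.582. The flank value was also the higher at Acmsd (1.49 against 0.786), Hgd (1.56 against 1.13) and Kynu (3.31 against 2.67). It was slightly higher at Fah (0.554 against 0.416) and Tat (0.308 against 0.27). Only Hpd and Haao went the other way, at 0.126 and 0.221 against 0.203 and 0.371 from length. Length thus gave the lower expectation for most of the group. The 36 members left without this group and Cps1, a remainder chosen after the peak numbers were seen and so low by choice, had 19 KO peaks where 19.3 were expected and 20 WT peaks where 28.7 were expected.

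Tdo2 encodes tryptophan dioxygenase, which opens the indole ring in the rate-limiting step of the kynurenine pathway in liver. The gene lies on the minus strand of chromosome 3, from 81958412 to 81975728. Its window held 4 peaks in KO and 1 in WT, where genes of like length averaged 0.369 and 0.570. In KO 0.782% of like-length genes had as many peaks, and in WT 40.3% did. The KO summits had 4, 5, 8 and 6 fragments and the WT summit 7. The strongest KO peak, at 81965493 to 81965644, had the caller's fold of 5.74 and rank 364 of the KO list. It overlapped the WT peak at 81965259 to 81965532, whose fold was 4.40, and the summits were 82 bp apart. This was 1 of only 2 sites in all member windows where the peaks of the genotypes overlapped.

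Tat encodes tyrosine aminotransferase, which starts tyrosine breakdown and is a classic glucocorticoid-induced liver gene. It had 2 peaks in KO, each with 5 fragments, and 0 in WT. Both KO summits lay upstream of the start site in the promoter table, by 2850 and 2324 bp, and inside the longer RefSeq gene span (chromosome 8, 109986078 to 109999804). As many KO peaks were found in 5.33% of like-length genes. The caller's folds were 3.59 and 3.73, and their ranks by strength were 22520 and 22033 of 41907.

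The sequences of the 250 bases before the start site are shown for genes at opposite ends of the range. Tdo2 and Tat had the KO peaks nearest to a known start site, Gldc had the WT peak nearest to one, and Ass1 had no peak in a long window. Sequences are from RefSeq (GRCm38.p6), written 5′ to 3′ on the gene's strand, with capitals for the letters TATAAA or CCAAT on either strand. The TATAAA of Tdo2 begins 229 bases before the start site and is a match of letters only.
Tdo2, minus strand, chr3:81975729-81975978: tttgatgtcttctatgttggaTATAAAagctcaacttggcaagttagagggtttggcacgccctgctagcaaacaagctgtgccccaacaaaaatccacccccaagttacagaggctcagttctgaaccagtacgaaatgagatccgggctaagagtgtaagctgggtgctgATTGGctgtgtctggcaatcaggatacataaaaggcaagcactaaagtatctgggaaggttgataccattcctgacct
Tat, plus strand, chr8:109990186-109990435: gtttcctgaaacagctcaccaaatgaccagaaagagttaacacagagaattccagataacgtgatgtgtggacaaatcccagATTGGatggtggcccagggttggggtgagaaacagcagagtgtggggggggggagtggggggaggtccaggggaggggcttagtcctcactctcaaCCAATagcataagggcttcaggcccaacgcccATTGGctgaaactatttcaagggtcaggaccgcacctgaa
Gldc, minus strand, chr19:30175442-30175691: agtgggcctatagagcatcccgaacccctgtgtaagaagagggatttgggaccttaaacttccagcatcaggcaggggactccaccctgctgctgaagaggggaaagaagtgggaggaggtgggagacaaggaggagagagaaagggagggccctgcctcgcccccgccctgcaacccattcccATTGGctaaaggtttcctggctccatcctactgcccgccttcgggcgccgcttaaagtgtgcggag
Ass1, plus strand, chr2:31470020-31470269: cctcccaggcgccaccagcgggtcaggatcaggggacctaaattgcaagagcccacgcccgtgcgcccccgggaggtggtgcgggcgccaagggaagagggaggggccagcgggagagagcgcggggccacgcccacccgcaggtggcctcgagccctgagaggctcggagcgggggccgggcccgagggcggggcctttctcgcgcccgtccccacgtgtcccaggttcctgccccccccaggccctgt

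No peak of either list overlapped any of the 37 promoter windows (250 bases before to 50 after a start site) that the table gives for 35 of the members. Over all 21263 such windows 0.193% overlapped a KO peak and 0.442% a WT peak, so 0 of 37 says nothing particular about the members. Within 2 kb of a start site, 1 of the 37 had a KO peak (Tdo2, 1544 bp into the gene) and 1 had a WT peak (Gldc, 733 bp into the gene). That was 2.70% for each genotype, against 4.13% of all start sites in KO and 7.47% in WT. Tdo2 held a TATAAA and a CCAAT match in its 250 bases, Tat and Gldc held CCAAT matches only, and Ass1 held neither. TATAAA was found in 18.9% of the members' 37 sequences of 250 bases, where Agxt2 gave the same match in 2 of them, and 11.6% of all of them, and CCAAT in 45.9% and 35.4%. Ass1 had 23 CG pairs and Tdo2 3, against a median of 6 for the members and 10 for all promoters. The median was 5 for sequences of members with a KO peak and 6.5 without one, and 4 and 7 for WT. Single genes went either way, since Glud1, with 46, had a KO peak and Uroc1, with 0, had no peak. By gene, with the overlapping sequences of Agxt2 counted once, TATAAA was found in 4 of 14 members with a KO peak in the window and 2 of 21 without one. It was found in 4 of 10 members with a WT peak and 2 of 25 without one. The split by peaks rests on 6 members with TATAAA and was not made over all genes, so it cannot show a link to peaks. These counts describe letters in a window and do not show binding.

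Kynu, the kynureninase gene, was dense in peaks in both genotypes when all peaks were counted. It is the longest member (chromosome 2, 43555258 to 43683048). Its window held 11 KO peaks with 4 to 6 fragments and 10 WT peaks with 4 to 8 fragments, where like-length genes averaged 2.67 and 3.53. As many were found in 2.12% of like-length genes in KO and 1.06% in WT. With 5 or more fragments it had 5 KO and 8 WT peaks, and 8.07% and 0.637% of like-length genes had as many. With 6 or more it had 3 and 4 (8.92% and 5.94%). The 500 kb on each side held 2.40 peaks per 100 kb in KO and 3.00 in WT, against 7.98 and 7.26 inside. Most of these peaks nevertheless lay at different places. That was usual, since 1.11% of KO peaks and 0.84% of WT peaks in all gene windows overlapped the other list. KO peaks were spread over 106 kb and WT peaks over 74.9 kb, and 1 pair overlapped, with 4 fragments in each and summits 86 bp apart. A further pair had summits 128 bp apart without overlapping.

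**Figure D2:**
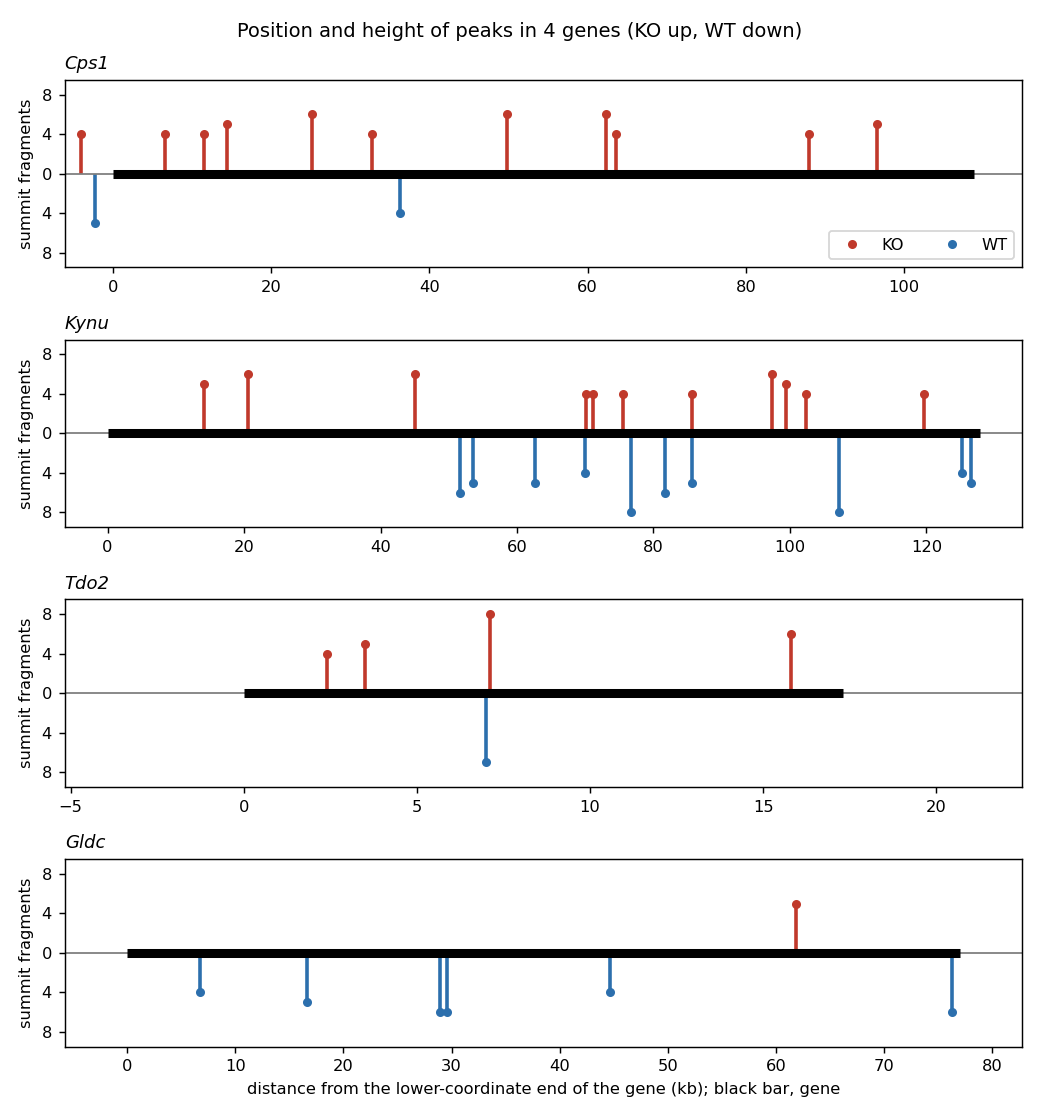
Each stem is a peak of Cps1, Kynu, Tdo2 or Gldc, at its summit's distance in kb from the lower-coordinate end of the gene (black bar), with height in summit fragments, KO upward and WT downward. Cps1 has 11 KO stems and 2 WT stems, Gldc has 1 and 6, and in Tdo2 the tallest KO stem (8 fragments) faces the WT stem (7 fragments).

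Kmo, which hydroxylates kynurenine, had 3 peaks in KO, with 4, 5 and 5 fragments, and 0 in WT. As many KO peaks were found in 5.15% of like-length genes. Hgd, which opens the ring of homogentisate, had 2 in KO and 1 in WT, and Fah, the last enzyme of tyrosine breakdown, had 1 in each. Acmsd, which diverts a tryptophan intermediate away from NAD synthesis, had 1 in KO, with 4 fragments, and 2 in WT, with 5 and 7. Acmsd alone among the 9 had more peaks in WT. Hpd, the dioxygenase between Tat and Hgd, and Haao, which acts after Kynu, had none in either list. Within the group, the 5 tryptophan genes had 19 KO peaks against 4.78 expected and 13 WT peaks against 6.65, and the 4 tyrosine genes 5 against 2.02 and 2 against 2.97. Without Kynu, which held 11 of the 19 KO and 10 of the 13 WT peaks, the other 4 tryptophan genes had 8 KO peaks against 2.11 and 3 WT peaks against 3.12.

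**Figure D3:**
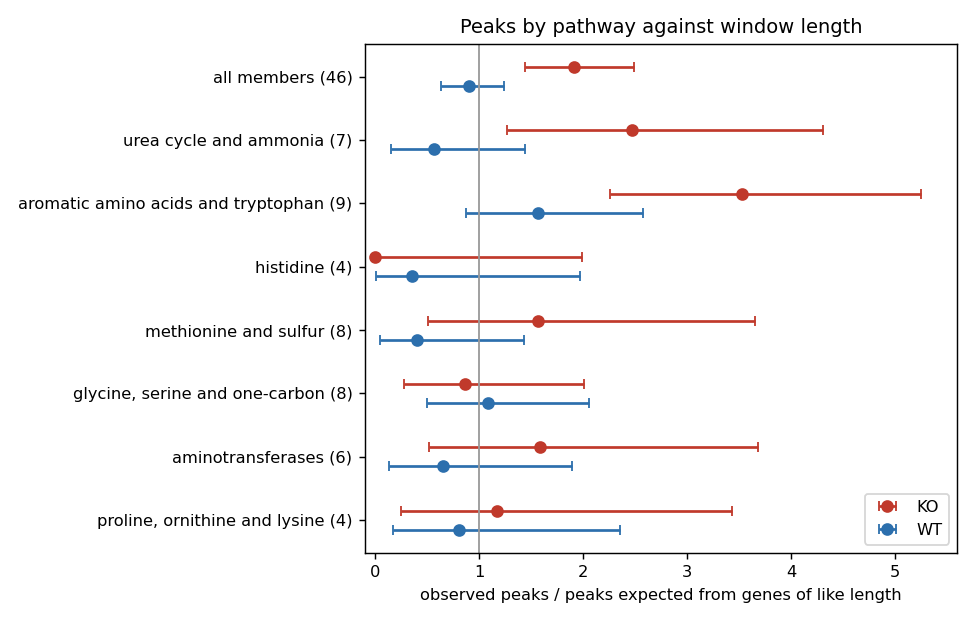
Points give the number of peaks observed over the number expected from genes of like length, for all members and 7 pathway groups (number of genes in brackets), with KO above WT. Bars are 95% Poisson intervals that cover counting error only. The aromatic group is highest, at 3.53 in KO and 1.56 in WT, and the urea cycle group follows in KO at 2.47, where 11 of its 12 peaks are in Cps1.

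The histidine genes were almost bare. Hal, histidase, had 0 peaks in KO and 1 in WT, with 7 fragments over a raised background of 1.45. Uroc1, Amdhd1 and Ftcd, which carry out the following steps, had none in either list. The group's 0 KO and 1 WT peaks compare with 1.85 and 2.82 expected, so a low number was not detectable as a difference at this depth.

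Methionine and sulfur genes had 5 KO peaks against 3.20 expected and 2 WT peaks against 5.04. Mat1a, which makes S-adenosylmethionine in liver, had 2 in KO, with 4 and 5 fragments, and 0 in WT. Cth, which makes cysteine from cystathionine, had 2 in KO, with 5 and 6 fragments, and 1 in WT, with 6. Cdo1, cysteine dioxygenase, had 1 in KO with 7 fragments and a fold of 5.10, at rank 1182 of that list, and 0 in WT. Ahcy, which splits S-adenosylhomocysteine, went the other way, with 0 in KO and 1 in WT. That WT peak had 9 fragments, the most of any WT peak in member windows, and lay 2333 bp upstream of the start site over a raised background of 1.45 fragments. Gnmt and Bhmt, of the methyl cycle, Cbs, which makes cystathionine, and Csad, of taurine synthesis, had no peak in either list.

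Among glycine, serine and one-carbon genes, Gldc was the member richest in WT relative to KO. It encodes the decarboxylase of the glycine cleavage system and lies on the minus strand of chromosome 19 (30098441 to 30175441). Its window held 1 peak in KO, with 5 fragments, and 6 in WT, with 4 to 6 fragments. Genes of like length averaged 1.66 in KO and 2.25 in WT, and as many were found in 67.4% of them in KO and 4.73% in WT. At 5 fragments or more Gldc had 1 peak in KO and 4 in WT, and at a caller q of 0.05 or smaller 0 in each. Dmgdh, dimethylglycine dehydrogenase, had 3 peaks in each genotype, none overlapping. Its KO peak of 9 fragments was the highest KO peak in member windows, over a raised background of 1.55 fragments. Shmt1, the cytosolic serine hydroxymethyltransferase gene, had 1 in KO, with 7 fragments over the same background, and 0 in WT. Amt, Shmt2, Sardh, Sds and Sdsl had no peak in either list. The group as a whole had 5 KO peaks against 5.81 expected and 9 WT peaks against 8.33.

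The aminotransferases had 5 KO peaks against 3.17 expected and 3 WT peaks against 4.64. Got2, the mitochondrial aspartate aminotransferase, had 2 in KO, with 5 and 6 fragments, and 0 in WT. Agxt2, a mitochondrial aminotransferase of glyoxylate metabolism, had 3 in each genotype, with 5, 6 and 4 fragments in KO and 7, 4 and 4 in WT. None of these overlapped. Got1, the cytosolic counterpart of Got2, the alanine aminotransferases Gpt and Gpt2, and Agxt, which detoxifies glyoxylate in peroxisomes, had none in either list. For proline, ornithine and lysine there were 3 KO peaks against 2.56 expected and 3 WT peaks against 3.73. Oat, ornithine aminotransferase, had 1 in KO and 0 in WT. Aass, which starts lysine breakdown, had 2 in KO and 3 in WT. The proline enzymes Prodh and Aldh4a1 had none.

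**Figure D4:**
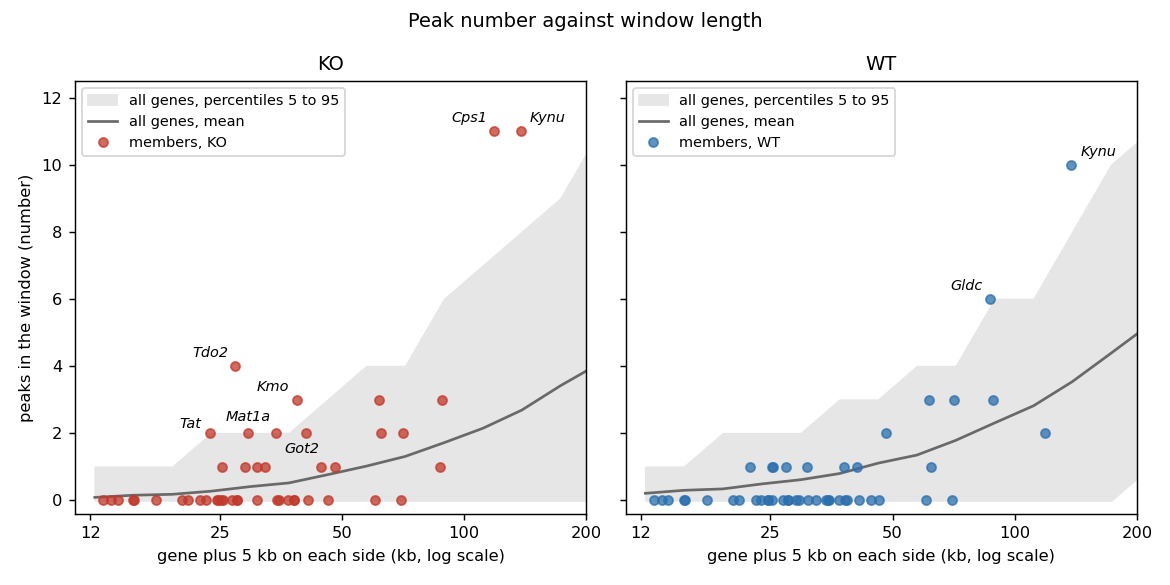
Each point is a member, placed by the length of its window (kb, log scale) and its peak number, with KO in the left panel and WT in the right. The grey line and band give the mean and percentiles 5 to 95 of all protein-coding genes. Tdo2, Kmo, Cps1 and Kynu lie above the band in KO, with 4, 3, 11 and 11 peaks. In WT Kynu lies above it with 10, and Gldc, with 6, lies at its upper edge.

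Peak number grew with window length, and the members were read against it one by one. At or above the 95th percentile of like-length genes were 7 members in KO (15.2%), against 9.57% of all genes, and 2 in WT (4.35%), against 13.3% of all genes. The KO members were Cps1, Tat, Tdo2, Kmo, Kynu, Mat1a and Got2, and the WT members Kynu and Gldc. The shares over all genes exceed 5% because ties at low whole numbers are included. For Mat1a and Got2 the KO number of 2 was matched by 8.12% and 9.32% of like-length genes. With 5 or more fragments the KO number was matched by 0.834% for Tdo2, 2.72% for Tat and 5.26% for Cps1. It was matched by 5.77% for Got2, 8.07% for Kynu, 8.28% for Kmo and 19% for Mat1a. With 6 or more these were 1.62% for Tdo2, 6.41% for Cps1, 8.92% for Kynu and 14.6% for Got2. Tat, Kmo and Mat1a then had no peak. In WT, Kynu and Gldc gave 0.637% and 8.41%, then 5.94% and 6.83%. Neither list had a peak for 23 of the 46 members, where 43.3% of all genes had none.

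Genes marked in both lists shared few sites. Of the 54 KO peaks 2 overlapped a WT peak (3.70%, interval 0.452 to 12.7), against 1.11% of KO peaks in the windows of all protein-coding genes. For the 37 WT peaks the number was also 2 (5.41%, interval 0.661 to 18.2), against 0.840% over all genes. The intervals include the values for all genes. Summits lay inside the gene for 94.4% of KO peaks and 86.5% of WT peaks, where gene bodies made up 74.7% of the window length. None of the 8 summits outside a member gene lay in another protein-coding gene.

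In height the KO peaks of the members resembled their list, while the WT peaks were higher. Among KO peaks, 44.4% had 4 fragments and 7.41% had 7 or more, against 42.6% and 9.56% of the whole KO list. Among WT peaks, 18.9% had 4 fragments and 24.3% had 7 or more, against 37.5% and 11.9% of the whole WT list. In the windows of all protein-coding genes the WT shares were 34.5% and 13.6%. The members' WT shares rest on only 37 peaks. The commonest local background applied to 83.3% of the members' KO peaks and 51.4% of their WT peaks, against 84.8% and 66.5% of the lists. Whether the higher backgrounds account for the higher WT summits was not tested. A caller q of 0.05 or smaller was reached by 13 KO peaks and 5 WT peaks. At the commonest background, 6 fragments gave a −log10 q of 1.38 in KO and 1.07 in WT, so this threshold admits lower summits in KO.

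A further 38 genes of the same pathways, among them Otc, Glul and Phgdh, were counted in the same way. They held 35 KO peaks against 26.0 expected from length (ratio 1.34, interval 0.936 to 1.87) and 36 WT peaks against 37.8 (0.951, 0.666 to 1.32). In KO 13 had a peak where 13.2 were expected, and in WT 18 where 19.8 were expected. Of their peaks 49.3% were from the KO list (interval 37.2 to 61.4), against 59.3% for the 46 members.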

How the data were processed

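The authors deposited 1 list of narrow peaks per IP library, called against the input of the same genotype. Per the submitters' processing notes, cutadapt 1.9.3 and Bowtie2 2.2.4 were used, with mm10 as the build. Per the file headers, MACS 2.1.1.20160309 worked in paired-end mode with a p cutoff of 0.001 and let at most 2 duplicate fragments stand at a position. The deposited pileup is a signal and holds only whole numbers, read here as fragments of the IP stacked at the summit. The fold deposited by the authors is the ratio of pileup to local background with a pseudocount, and the deposited p and q are −log10 values. Per the file headers q would not be calculated, yet the q column holds values, so q serves here only as a descriptive threshold. The background of a peak was computed from pileup and fold. All are the authors' values and only describe or filter peaks within a list.

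Gene ends came from a RefSeq gene table on GRCm38.p6 (mm10), which gives no exons, so exonic and intronic peaks were not separated. Start sites and strands came from the promoter table for 35 of 46 members. Like-length genes were those within 10% of a member's window length, without the member itself. Groups were taken from sample titles. Counting was tested on simulated peaks. Shares have exact (Clopper-Pearson) and peak sums exact Poisson 95% intervals. No p-value was computed, since each group had 1 library. The precision is set by the few fragments per summit. All members were accounted for, and described in full were those at the 95th percentile, with extreme KO minus WT numbers, with the highest summits, with shared sites or with no peak. The members and lists were chosen with earlier results of these data known. Computation used Python 3.11.15, numpy 2.4.6, pandas 2.3.3 and scipy 1.17.1.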

Additional observations from a re-analysis of the deposited data

How the results depend on the processing

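Window (gene only, 2 kb or 10 kb on each side), summit placement and like-length tolerance (20%) kept every count within 1.5 times and every ratio or share inside its interval. Over all alternatives, the others below included, this held for 70 of 95 values. For all members the ratio of KO peaks to those expected ranged from 1.33 to 2.28 and that of WT from 0.676 to 1.12. With 5 or more fragments there were 30 KO peaks and 1 shared site. At a caller q of 0.05 or smaller, KO had 13 peaks in 8 of 46 members (16.0% of all genes), WT had 5 peaks in 5 (11.4%), 3 members were marked in both (4.81%), the KO share was 72.2% (66.7% for all genes) and 1 site was shared. With the strongest 20000 peaks of each list, KO had 24 peaks in 12 of 46 members (21.4% of all genes) and WT 19, 7 members were marked in both (12.3%), and 1 site was shared. Overlap by 50% of the shorter peak left 1 shared site, and summits within 200 bp gave 3. These alternatives were chosen after seeing the data: without Cps1 and Kynu, 32 KO peaks and a KO ratio of 1.37, without the 3 longest windows (Kynu, Cps1 and Dmgdh) 1.33, with 6 or more fragments 1.37 and a KO share of 43.8%, the pathway groups at other thresholds, and with expectation from 500 kb on each side 1.70 in KO and 0.840 in WT. The cause of these shifts was not tested, beyond fewer peaks or genes entering. No paired analysis was possible because each group had 1 library.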

Other observations

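Counted with all peaks, the KO and WT numbers differed in how they were divided between short and long members. The split at 60 kb was made after the values were seen. The 37 members with windows under 60 kb had 21 KO peaks against 14.2 expected from length (ratio 1.48, interval 0.918 to 2.27) and 9 WT peaks against 22.5 (0.400, 0.183 to 0.760). The 9 members with longer windows had 33 KO peaks against 14.1 (2.34, 1.61 to 3.29) and 28 WT peaks against 18.8 (1.49, 0.991 to 2.16). Cps1 and Kynu held 22 of the 33 KO peaks of the long members, and without them the other 7 had 11 KO peaks against 9.24 (1.19, 0.594 to 2.13) and 16 WT peaks against 12.3 (1.30, 0.743 to 2.11). With 5 or more fragments the 37 short members had 15 KO peaks against 9.41 (1.59, 0.892 to 2.63) and 9 WT peaks against 16.2 (0.557, 0.255 to 1.06). With 6 or more they had 6 KO peaks against 5.27 (1.14, 0.418 to 2.48) and 8 WT peaks against 9.81 (0.816, 0.352 to 1.61). The low WT number of the short members thus did not stand out among these higher peaks.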
